A study of Homo sapiens with 8 samples.

Results

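The keratin gene clusters were examined as sets of accessible regions. Peaks of all 8 libraries were merged wherever they shared at least 1 bp, which gave 80588 regions on chromosomes 1 to 22 and X, and every merged region overlapping the type II cluster with KRT18 (chr12:52550000-53360000, hg19) or the type I cluster (chr17:38800000-39790000) was taken. This gave 84 regions, 50 in the type II cluster and 34 in the type I cluster. Within these windows no measured value entered the choice beyond the presence of a peak, but the part was chosen with earlier results of these data known. The nearest regions outside the windows lay 3.61 and 5.32 kb beyond the ends of the type II window and 23.4 and 14.9 kb beyond those of the type I window.

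The assay was ATAC-seq, which marks accessible chromatin by letting Tn5 transposase cut and tag it. The cells were KOSC-2, which the labels call radiosensitive, and HSC-3, which they call radioresistant, both established lines from oral squamous cell carcinoma. Each line was grown in the same serum-containing medium, received 0 or 8 Gy of radiation and was frozen 24 hours later, with 2 libraries per line and dose. With 1 line per class, line and radiosensitivity cannot be told apart, and whether replicates were separate cultures is not stated, so any p-value measures only the spread between these libraries. In such bulk libraries a region open in fewer cells and a region less open in every cell cannot be told apart.

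Keratins are the intermediate filament proteins of epithelia and are built as pairs of a type II and a type I chain. Basal cells of stratified epithelia use KRT5 with KRT14, simple epithelia use KRT8 with KRT18 and often KRT19, and activated or wounded keratinocytes add KRT6A with KRT16 and KRT17. The same clusters hold the keratins of differentiated and mucosal layers, the hair and root sheath keratins and, inside the type I cluster, a block of keratin-associated protein genes of the hair shaft. Carcinomas of stratified epithelia are known to carry basal and stress keratins and, in part, simple keratins.

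No gene annotation of hg19 was at hand. The starts of 57 genes were therefore entered by hand on hg19 from general knowledge, and their spacing within each cluster was set beside RefSeq on GRCh38.p14. All 57 matched within 1 kb at either end of the gene. The start itself matched within 1 kb for 54 genes, with a median difference of 19 bp. The exceptions were KRT8, KRT72 and KRT86, for which RefSeq places the start elsewhere. A region was named after the gene with the nearest start to its summit, with upstream and downstream read along that gene, and was counted as lying at the start within 1 kb.

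The 3 promoters below include the stretch before a start that was open in most libraries (KRT5) and the stretch before an upstream start of KRT8. For contrast, the stretch before KRT71, a root sheath keratin next to KRT5 with no region near it, is printed too. Each is the 250 bases before a RefSeq start on GRCh38.p14, minus strand of chromosome 12, read 5′ to 3′ along the gene. Capitals mark motif matches.
KRT5: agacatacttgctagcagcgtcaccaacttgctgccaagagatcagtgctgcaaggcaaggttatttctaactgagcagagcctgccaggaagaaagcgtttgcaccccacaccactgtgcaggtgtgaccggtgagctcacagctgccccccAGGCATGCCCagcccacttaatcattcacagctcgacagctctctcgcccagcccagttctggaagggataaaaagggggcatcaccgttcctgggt
KRT8: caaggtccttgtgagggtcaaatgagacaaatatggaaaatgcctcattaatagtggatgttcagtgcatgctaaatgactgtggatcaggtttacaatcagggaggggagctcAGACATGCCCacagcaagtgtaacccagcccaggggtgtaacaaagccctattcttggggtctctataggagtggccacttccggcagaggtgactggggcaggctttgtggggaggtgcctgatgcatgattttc
KRT71: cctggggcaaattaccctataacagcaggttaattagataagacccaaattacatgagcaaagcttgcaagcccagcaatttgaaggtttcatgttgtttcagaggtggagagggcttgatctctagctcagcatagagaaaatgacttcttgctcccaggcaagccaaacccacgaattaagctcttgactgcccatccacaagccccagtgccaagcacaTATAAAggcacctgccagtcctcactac
Both strands were searched for the TATA box (TATAAA), the Sp1 site (GGGCGG), the AP-1 site (TGANTCA), the AP-2 site (GCCNNNGGC) and the p53-family decamer. A single decamer is only part of the element recognised by p53, p63 and p73. Of these, p63 is a regulator of basal keratinocytes. The decamer was added to the search after it had been noticed by eye in the KRT5 and KRT8 sequences, so its presence there is how it was chosen and no finding. The decamer began 97 bases before the KRT5 start and 136 bases before this upstream KRT8 start. Of 35116 RefSeq promoters of this length, 5.57% held it. KRT71 held a TATA box 28 bases before its start, and 10.7% of promoters held one in this window. The Sp1 (42.6% of promoters), AP-1 (6.57%) and AP-2 (19.8%) letters were in none of the 3. A match is a run of letters and no evidence of binding.

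Regions were unevenly spread over the clusters. The type II cluster held 61.7 regions per Mb and the type I cluster 34.3, against 27.5 per Mb over the whole genome from the first to the last region of each chromosome. The longest stretches without any region in any library were 170 kb of the type I cluster, which holds the starts of KRT222, KRT24 and the root sheath keratins KRT25, KRT26, KRT27 and KRT28, then 138 kb with KRT23, KRT39 and KRT40, and 126 kb of the type II cluster with the starts of KRT1, KRT77, KRT76 and KRT3. KRT1 is the type II keratin of cornifying epidermis, and its partner KRT10 also had no region within 1 kb of its start. Only 8 of the 54 keratin genes had one there: KRT5, KRT6A, KRT8, KRT18, KRT80, KRT15, KRT86 and KRT9. The last 2 rested on 1 library each. At a start lay 7 of the 50 type II regions and 4 of the 34 type I regions, the latter including the non-keratin genes SMARCE1 and TMEM99. Most keratin regions thus lay away from the entered starts, but the same share over all regions was not counted.

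**Figure D1:**
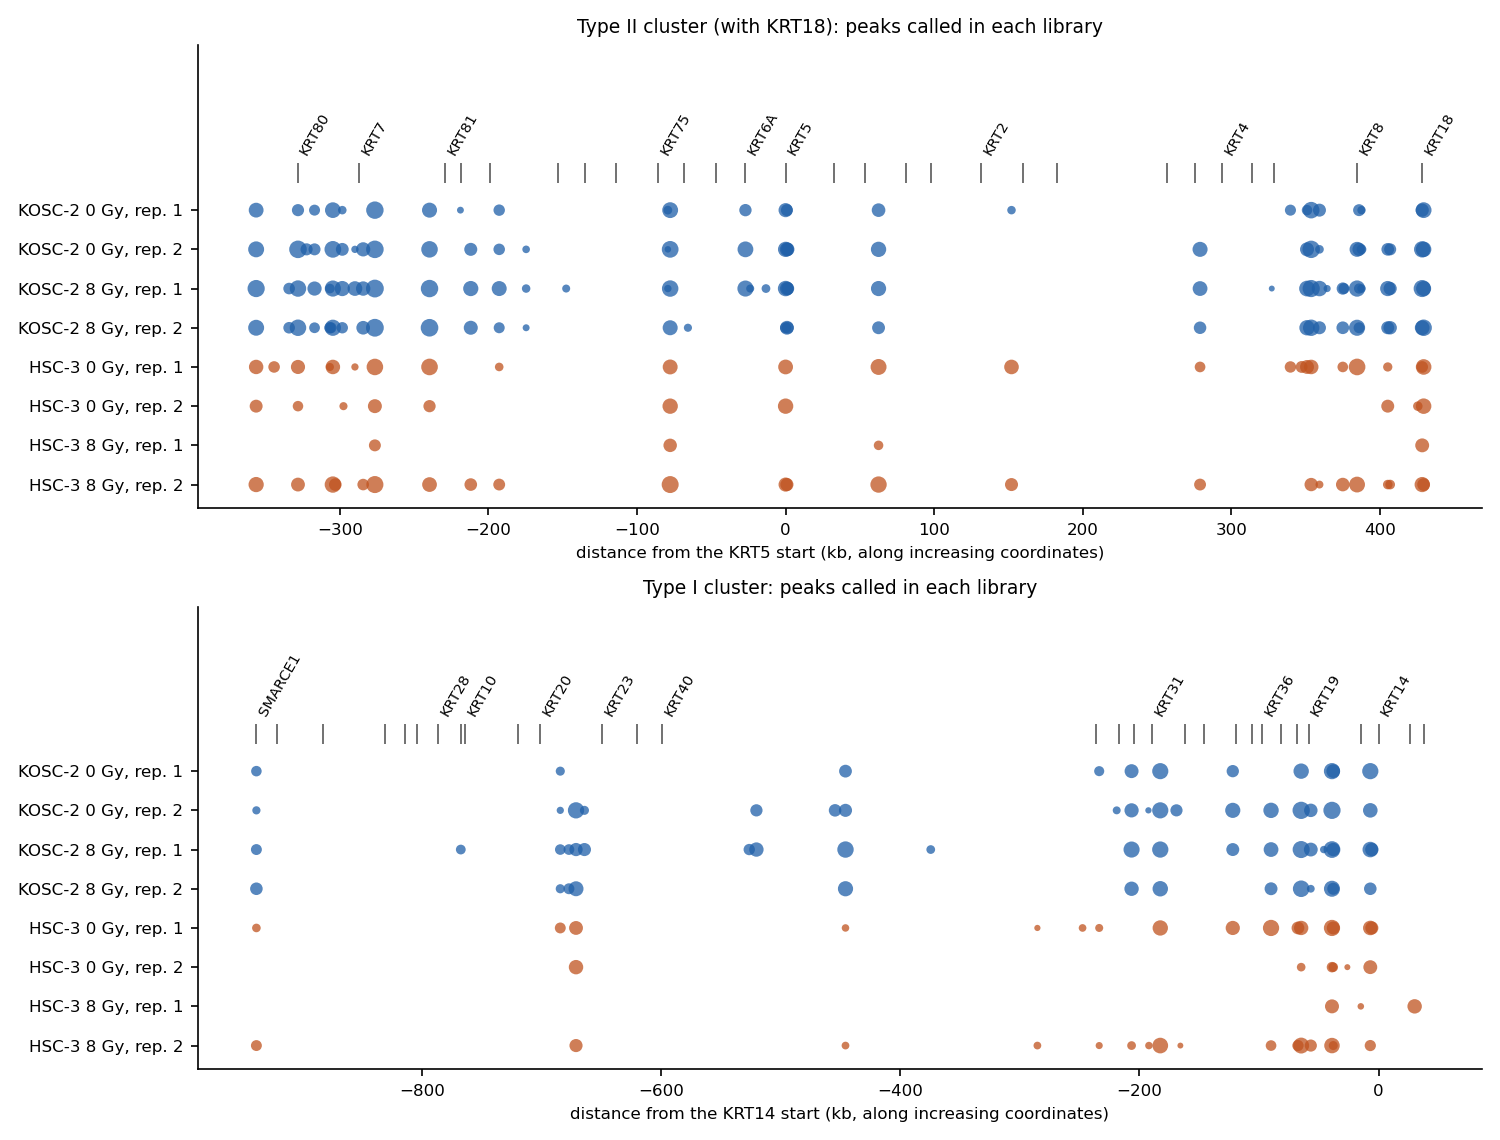
Peaks called in each library (rows) along the type II cluster (top, distance in kb from the KRT5 start) and the type I cluster (bottom, distance from the KRT14 start); each point is a region called in that library, larger points have a higher percentile within the library's own list, blue is KOSC-2, orange HSC-3, and ticks are gene starts, some of them named. Regions gather around KRT80 and KRT7, at KRT5, from KRT8 to KRT18 and from KRT31 to KRT14, while the 170 kb right of SMARCE1 and a stretch of 126 kb between the KRT2 and KRT4 labels hold none.

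The basal pair differed within itself, since KRT5 was open at its start and KRT14 was not called there. KRT5, the type II keratin of basal cells, had a region at its start (chr12:52913982-52914577) with the summit 54 bp upstream, called in 4 of 4 KOSC-2 and 3 of 4 HSC-3 libraries. Its percentile, the rank of its −log10 p within the library's own list, was 54.3 and 65.2 in the KOSC-2 0 Gy libraries, 67.2 and 28.9 in the KOSC-2 8 Gy libraries, 60.7 and 66.4 in the HSC-3 0 Gy libraries, and 54.3 in replicate 2 of HSC-3 at 8 Gy. The lines overlapped among the 7 libraries with a call, and the lowest value was KOSC-2 8 Gy replicate 2. Here and below, a percentile exists only where a library called the region. It is also relative to a list whose length differs between libraries. The summits of all 7 libraries lay within 75 bp. A second region 917 bp upstream (chr12:52914936-52915404) was called in 4 KOSC-2 libraries and 1 HSC-3 library, and another 1511 bp upstream (chr12:52915545-52915956) in 3 KOSC-2 libraries and no HSC-3 library.

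KRT14, the type I partner of KRT5, had its nearest summit 5.66 kb from the start, beyond the other end of the gene. The region there (chr17:39737149-39737965) was called in 1 library of each line, and a neighbour 7.2 kb from the start (chr17:39735753-39736782) in 4 KOSC-2 and 3 HSC-3 libraries. The percentile of the latter ran from 40.6 to 75.2 in KOSC-2 and was 58.3, 52.0 and 29.98 in the HSC-3 libraries that called it, so the lines overlapped. KRT14, KRT16 and KRT17 are known to have near-identical copies elsewhere on chromosome 17, and KRT6A, KRT6B and KRT6C resemble each other closely. How reads with several matches were handled is not given in the sources used here, so a missing call at these genes is uncertain.

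Of the simple keratins, KRT8 and KRT18 were open at their starts in both lines and KRT19 was not. KRT18, the type I partner of KRT8, had a region at its start (chr12:53342527-53343026, summit 139 bp downstream) called in 4 KOSC-2 and 3 HSC-3 libraries. The summit pileup, the number of overlapping fragments there, was 41 and 54 in the KOSC-2 0 Gy libraries and 73 and 44 at 8 Gy. In HSC-3 it was 26 at 0 Gy (replicate 1) and 32 and 33 at 8 Gy. Pileup follows sequencing depth and was not compared between libraries. A second region inside KRT18 (chr12:53343445-53344045, 1060 bp downstream) was called in 7 libraries as well, again missing 1 HSC-3 library, but a different one: the 0 Gy replicate 2 library lacked the first region and the 8 Gy replicate 1 library the second.

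KRT8, the simple type II keratin, had a region over its entered start (chr12:53298712-53299172, summit 39 bp upstream) in 3 KOSC-2 and 2 HSC-3 libraries. Its percentile was 62.7, 75.8 and 74.2 in KOSC-2 (0 Gy replicate 2, then 8 Gy replicates 1 and 2) and 80.2 and 71.0 in HSC-3 (0 Gy replicate 1 and 8 Gy replicate 2). The lines overlapped among these 5 libraries with a call. The summits lay within 39 bp of each other. A region 1401 bp upstream (chr12:53300095-53300501) was called in 4 KOSC-2 libraries and no HSC-3 library, and one 2856 bp upstream in 3 KOSC-2 libraries and no HSC-3 library. Farther upstream lay the widest of the keratin regions, 1595 bp (chr12:53318796-53320390), called in 3 libraries of each line. RefSeq on GRCh38.p14 places a KRT8 start 22.4 kb before KRT18, and on hg19 this region spans 22.3 to 23.9 kb before KRT18. The KRT8 sequence printed above is the stretch before that upstream start. The RefSeq gene itself begins farther out, 44776 bp before the entered start. Placed on hg19 by that spacing, its beginning lies within the second region inside KRT18 (chr12:53343445-53344045). Which gene that region belongs to was not tested.

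KRT19, a type I simple keratin without a fixed partner, had no region within 1 kb of its start. The nearest, 1876 bp upstream (chr17:39686207-39686768), was called in 3 KOSC-2 libraries and 1 HSC-3 library with percentiles of 48.5, 51.6 and 8.6 in KOSC-2 and 37.3 in HSC-3. A region 19.7 kb upstream (chr17:39703754-39704666) was one of only 3 keratin regions called in all 8 libraries. Its percentile was 74.8 and 86.1 in KOSC-2 at 0 Gy, 80.9 and 73.3 at 8 Gy, and 75.2, 24.96, 53.02 and 67.7 in the HSC-3 libraries in the same order.

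The stress keratins had few regions. KRT6A, the type II keratin of activated keratinocytes, had a region at its start (chr12:52886976-52887523, summit 50 bp upstream) in 3 of 4 KOSC-2 libraries, with percentiles of 38.8 and 70.7 at 0 Gy and 73.7 at 8 Gy (replicate 1). No HSC-3 library called it, nor did the KOSC-2 8 Gy library replicate 2. KRT16, a type I stress keratin, had 1 region 4.3 kb upstream (chr17:39773195-39773532), called only in replicate 1 of HSC-3 at 8 Gy. KRT17, the other type I stress keratin, had none assigned to it and its nearest summit, that same region, was 7.50 kb away. KRT6B had 1 region 2.7 kb upstream in 1 KOSC-2 library and KRT6C had none.

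**Figure D2:**
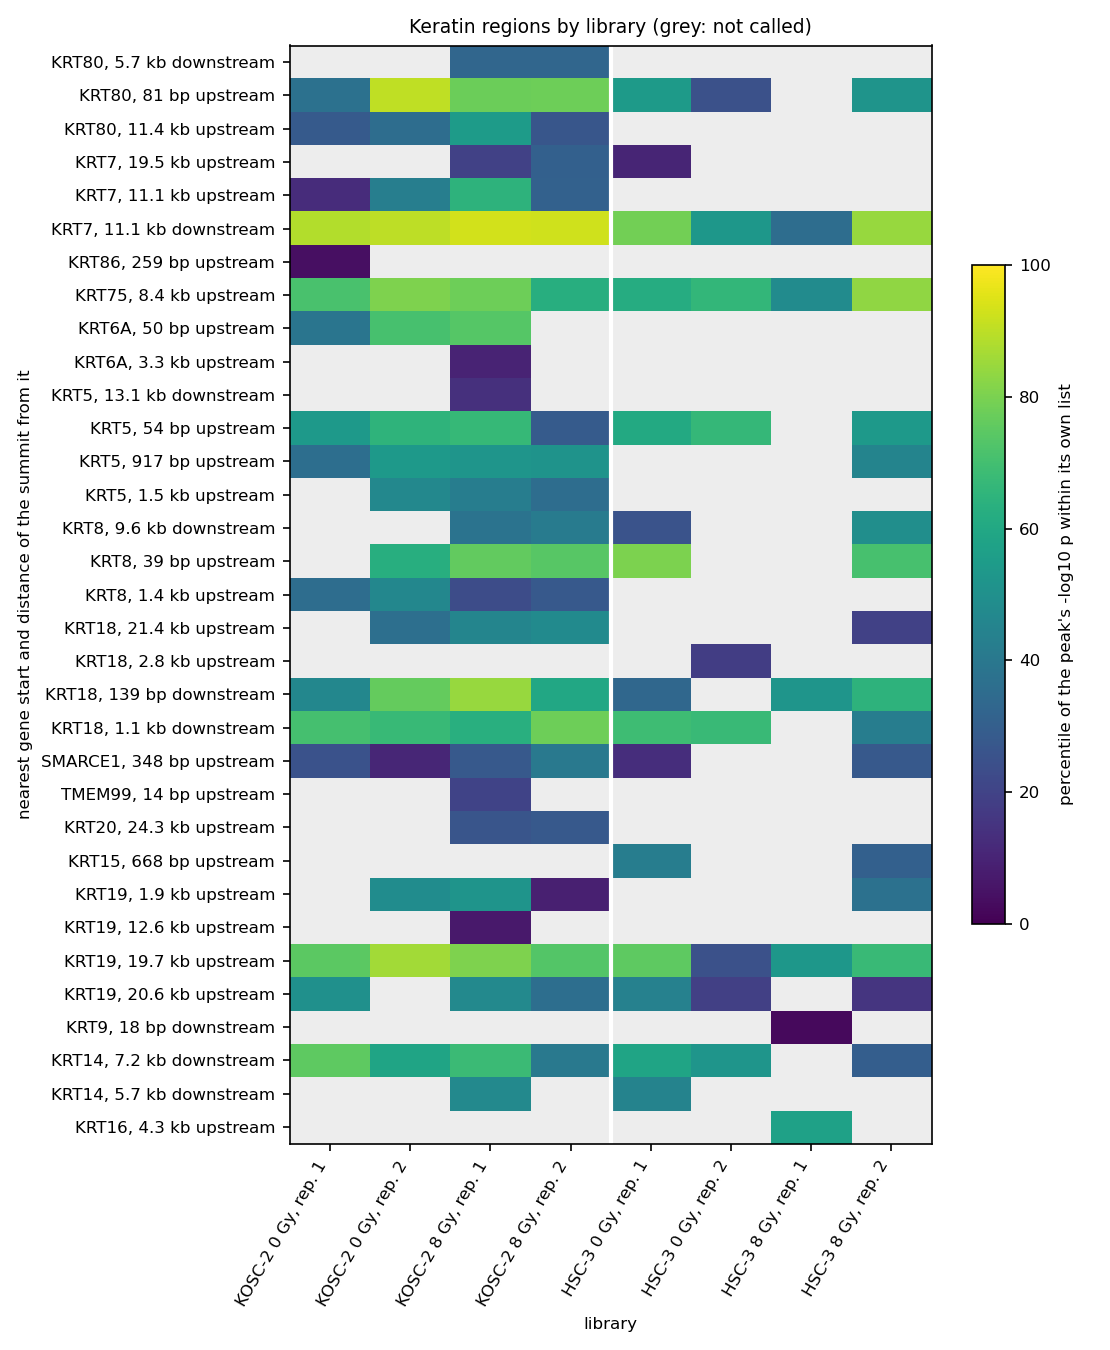
Regions at gene starts, regions called in all 8 libraries, line-only and dose-associated regions, and all regions of KRT5, KRT6A, KRT14, KRT16, KRT18 and KRT19 (rows, named by the nearest start and the summit's distance from it) in each library (columns); colour gives the percentile of the peak's −log10 p within its own list and grey means not called. The HSC-3 8 Gy library replicate 1 is grey at most rows, KRT6A at its start is coloured in 3 KOSC-2 libraries only, and KRT15 at its start in 2 HSC-3 libraries only.

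Among the other simple keratins, KRT80 and KRT7 had most of the regions. KRT80, a filament keratin of wide epithelial use, was open at its start (chr12:52585574-52586545, summit 81 bp upstream) in 4 KOSC-2 and 3 HSC-3 libraries. KRT7, the type II keratin of glandular and ductal epithelia, had no region within 1 kb of its start but 9 assigned to it. The strongest keratin region by mean percentile (77.0) lay inside KRT7, 11.1 kb downstream of its start (chr12:52637191-52638456), and was called in all 8 libraries. Its percentile was 88.5, 89.98, 93.1 and 92.8 in the KOSC-2 libraries and 78.7, 52.8, 35.7 and 84.4 in the HSC-3 libraries, each listed as 0 Gy replicates 1 and 2, then 8 Gy replicates 1 and 2. KRT20, a keratin of intestinal and urothelial cells, and KRT23 had 2 regions each, all at least 15.1 kb from the starts.

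The 14 keratins of differentiated and mucosal layers had 11 regions, and 2 of the genes had one at the start. KRT15, 1 of these genes, is known as a type I keratin of basal and stem cells, so the name of the list does not describe it, and it supplied 2 of the 11 regions. The region at its start (chr17:39675303-39676191, summit 668 bp upstream) was called in the HSC-3 0 Gy library replicate 1 (percentile 42.2, pileup 38) and 8 Gy library replicate 2 (percentile 30.6, pileup 27) and in no KOSC-2 library. These are the 2 long HSC-3 lists. A neighbour 2914 bp upstream (chr17:39677841-39679018) was called in 7 libraries of both lines. The region at the start of KRT9, the keratin of palms and soles, was a weak call (percentile 2.71) in 1 HSC-3 library. The mucosal pair KRT4 and KRT13 had no region nearer than 15.2 and 8.66 kb. The other strong regions of this list lay 22.5 and 25.4 kb upstream of KRT78, in the interval between KRT78 and KRT8, and are named after KRT78 by distance alone.

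The 26 hair and root sheath keratins had 19 regions, but only 1 of the genes had one at its start, KRT86, whose region had a percentile of 4.12 in 1 library and whose start rests on the entered position alone. A region 8.4 kb upstream of KRT75 (chr12:52836169-52836997), between the hair keratins and the KRT6 genes, was also called in all 8 libraries, with percentiles of 62.8 to 80.7 in KOSC-2 and 48.3 to 83.5 in HSC-3. The keratin-associated protein block held 7 regions, 4 of them called in a single library (all regions 31.9%). Another (chr17:39296864-39297510) was called in all 4 KOSC-2 libraries and in the 2 long HSC-3 lists, there at percentiles of 7.16 and 8.39. The strongest hair-assigned region (mean percentile 71.3) lay 10.9 kb downstream of the KRT81 start (chr12:52674011-52675194) and was called in 4 KOSC-2 and 3 HSC-3 libraries. By the entered positions it lay in the interval between KRT7 and KRT81. RefSeq begins KRT86 27220 bp before the entered start, which places this region inside KRT86. In the block the strongest (chr17:39222428-39222890, mean percentile 47.2) was called in 2 KOSC-2 libraries. Hair genes were thus not free of regions, but these lay between genes or inside them rather than at starts.

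**Figure D3:**
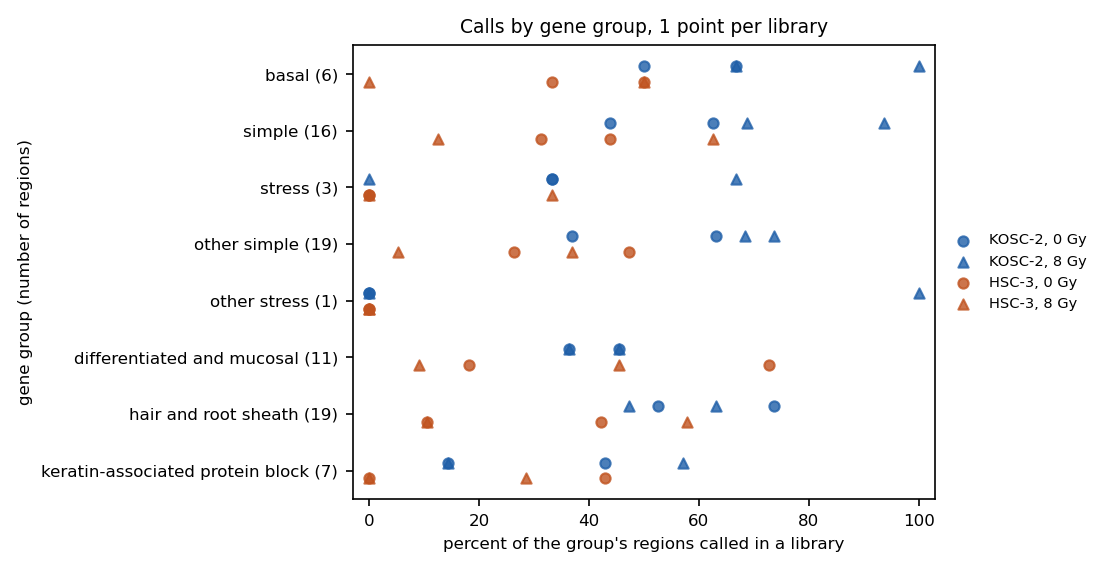
Share of each gene group's regions called in a library (horizontal axis, percent), 1 point per library, blue KOSC-2, orange HSC-3, circles 0 Gy, triangles 8 Gy; the number of regions of the group is in brackets. HSC-3 points reach down to 0% in the basal, stress, other stress and keratin-associated protein groups. KOSC-2 points do so in the stress and other stress groups. The spread within HSC-3 is wide in most groups, while the differentiated and mucosal group has its highest point, 8 of 11 regions, in an HSC-3 library.

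The local background under the peaks, a measure added after seeing the data, gave a second view of the clusters. It is the background under a summit scaled to reads per 10 kb, solved from the deposited fold and p, and it was divided by the median over all peaks of the same library. At the KRT5 start the ratio was 3.72, 3.77, 4.05 and 3.03 in the KOSC-2 libraries and 3.64, 2.27 and 3.51 in the HSC-3 libraries with a call. At the KRT8 start it was 4.53, 4.01 and 4.13 in KOSC-2 and 2.57 and 2.58 in HSC-3, without overlap among the 5 libraries with a call. At KRT15 the region called in both lines, 2914 bp upstream, had 3.11, 2.88, 2.98 and 2.49 in KOSC-2 against 4 (0 Gy replicate 1), 2.79 and 3.34 in HSC-3, with overlap. Over all libraries that called a region, the median ratio exceeded 2 in 24 of 84 keratin regions (28.6%), against 11.7% of all 80588 regions. By group these were 3 of 6 basal, 9 of 16 simple, 5 of 19 other simple, 5 of 11 differentiated and mucosal (2 at KRT15, a basal keratin, and 3 between KRT78 and KRT8), 2 of 19 hair and root sheath regions and 0 of 7 in the keratin-associated protein block. Neighbouring regions can repeat nearly the same level. The 3 basal regions all lay at KRT5, with ratios of 3.77, 3.87 and 3.79 in KOSC-2 0 Gy replicate 2. The 24 are therefore not independent regions. The measure exists only where a peak was called, and what sets its level was not tested.

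**Figure D4:**
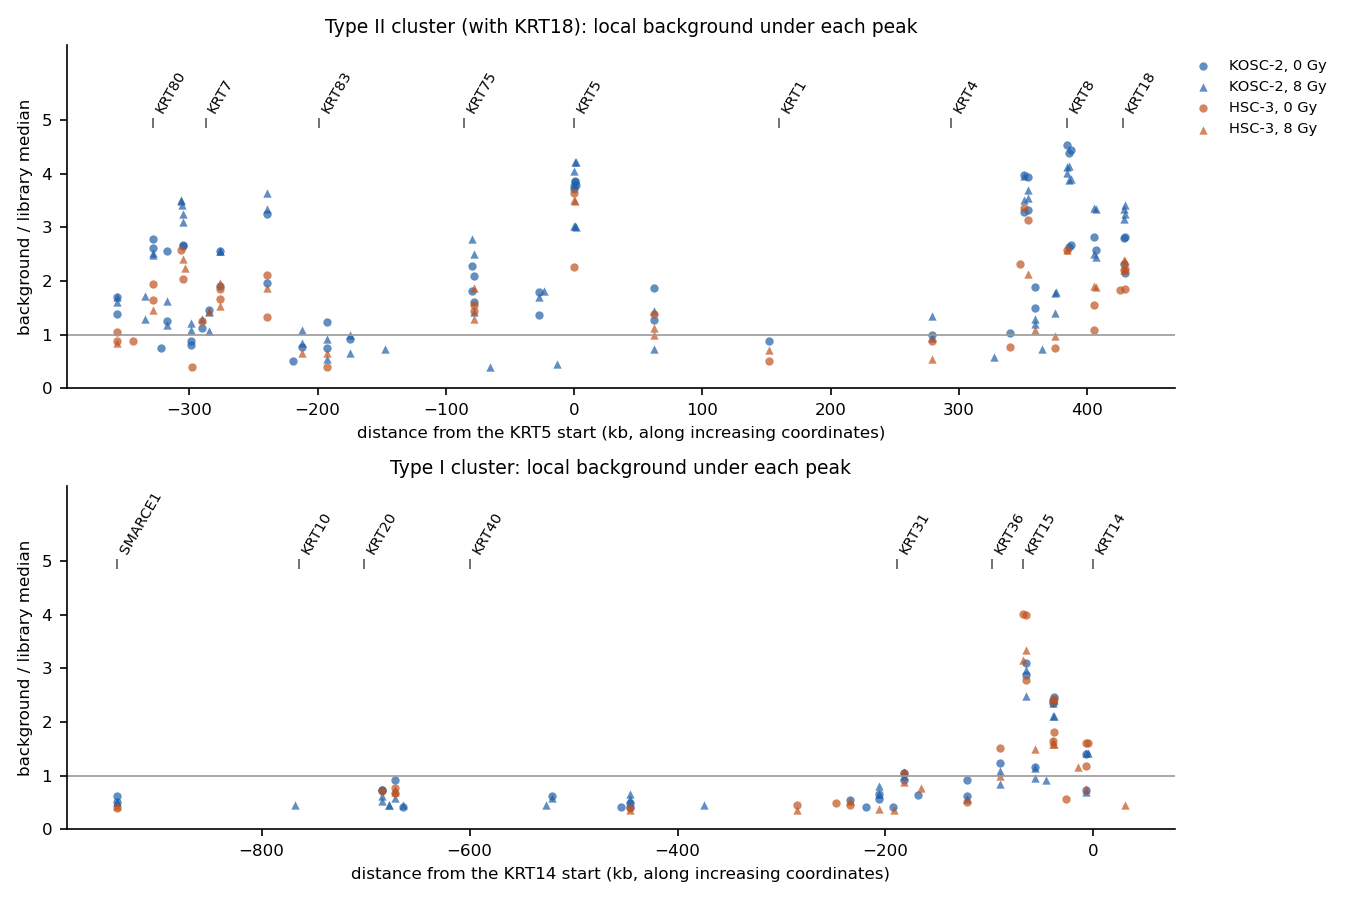
Background under each summit, in reads per 10 kb, divided by the median over all peaks of the same library (vertical axis), along the type II cluster (top, kb from the KRT5 start) and the type I cluster (bottom, kb from the KRT14 start); 1 point per region and library that called it, blue KOSC-2, orange HSC-3, circles 0 Gy, triangles 8 Gy, line at 1. Points rise to about the 4-fold level at KRT5, KRT8 and KRT15 and stay near or below 1 in the type I cluster left of KRT36.

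The first comparison was between the lines. The KOSC-2 libraries had more keratin peaks for their list length than the HSC-3 libraries, and the 2 short HSC-3 lists had the fewest. The KOSC-2 libraries called 35 and 49 of the 84 regions at 0 Gy and 60 and 44 at 8 Gy, and the HSC-3 libraries 39 and 16 at 0 Gy and 7 and 39 at 8 Gy. Lists ran from 22504 to 51693 peaks on the chromosomes used, so keratin peaks were also counted per 10000 peaks of the list: 9.42, 11.0, 11.8 and 10.4 in KOSC-2 (mean 10.6 ± 1.01, SD, n = 4) and 9.30, 7.24, 3.11 and 9.05 in HSC-3 (7.18 ± 2.86, SD, n = 4). Every KOSC-2 value was above every HSC-3 value, but the lowest of KOSC-2 (9.42) and the highest of HSC-3 (9.30) were close. The difference of 3.47 became 2.12 when HSC-3 8 Gy replicate 1 was left out and 1.47 with both short HSC-3 lists left out, the latter chosen after seeing the data. It was 4.11 with all lists shortened to equal length, 3.84 at a −log10 q of at least 5, and 4.18 and 4.10 when the long HSC-3 list at 0 Gy or at 8 Gy was left out. No p is given, since the regions are a set chosen with earlier results known.

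**Figure D5:**
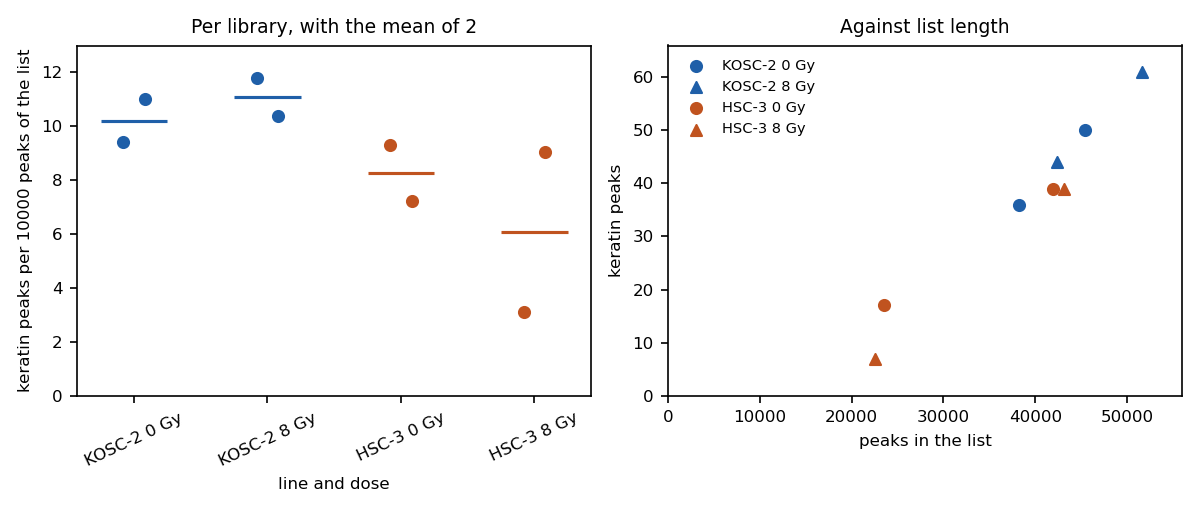
Left, keratin peaks per 10000 peaks of the list for each library by line and dose, with bars at the mean of 2; right, number of keratin peaks against the number of peaks in the list. The KOSC-2 libraries lie between 9.42 and 11.8, the HSC-3 libraries between 3.11 and 9.30, and the 2 lowest HSC-3 points are the 2 short lists.

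Keratin regions called in all 4 KOSC-2 libraries numbered 26 (31.0%), near the 31.8% of all regions. In HSC-3, 3 (3.57%) were called in all 4 libraries, against 18.1% of all regions. The same 3 were those called in all 8 libraries, against 15.9% of all regions. Both shares depend on the 2 short HSC-3 lists. In all 4 KOSC-2 libraries and both long HSC-3 lists were 18 of 84 (21.4%), against 26.3% of all regions, a setting chosen after seeing the data. More KOSC-2 than HSC-3 libraries called 60 of the 84 (71.4%, all regions 54.3%), and the reverse held for 15 (17.9%, all regions 22.0%). Regions called in 4 of 4 KOSC-2 and 0 of 4 HSC-3 libraries numbered 3 of 84 (3.57%, all regions 2.07%), and the reverse 0 of 84 (all regions 0.300%). The 3 were the region 1401 bp upstream of KRT8 and 2 regions between KRT80 and KRT7, 11.4 kb upstream of KRT80 (chr12:52596892-52597510) and 11.1 kb upstream of KRT7 (chr12:52615593-52616168). Their mean percentiles were 33.2, 36.5 and 37.8, the lower part of the lists. The exact permutation p (two-sided) was 0.0286 for each, the lowest that 4 against 4 libraries allow, which became 1 after Benjamini-Hochberg adjustment over all 80588 regions.

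These counts moved with single libraries. Leaving out KOSC-2 0 Gy replicate 1 gave 5 KOSC-2-only keratin regions (all regions 5.55%) and leaving out KOSC-2 8 Gy replicate 2 gave 6 (2.67%). Leaving out HSC-3 0 Gy replicate 1 gave 5 (3.43%) and HSC-3 8 Gy replicate 2 gave 6 (3.23%). With all lists shortened to the strongest 22504 peaks, 1 of 40 keratin regions was KOSC-2-only (all regions 1.68%), and of the 3 above the KRT7 one was ahead in KOSC-2 by 1 library and the other 2 by 0. With the 2 short HSC-3 lists set aside, 3 of the 84 were called in 4 of 4 KOSC-2 libraries and neither long HSC-3 list (all regions 2.30%). In both long HSC-3 lists and no KOSC-2 library were 2 of the 84 (all regions 2.99%), the KRT15 start and a weak region in the keratin-associated protein block (chr17:39457455-39458022). Each HSC-3 dose has 1 short and 1 long list.

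The 3 regions called in all 8 libraries were also ranked among the 12827 regions called in all 8, so that every library ranked the same set. The region inside KRT7 stood at percentiles of 67.2, 67.5, 73.8 and 77.6 in KOSC-2 and 40.9, 33.3, 17.2 and 52.8 in HSC-3, without overlap (means 71.5 ± 5.07 and 36.05 ± 14.9, SD, n = 4 each). The region 19.7 kb upstream of KRT19 stood at 37.5, 57.0, 38.9 and 35.3 in KOSC-2 and 34.3, 11.99, 31.9 and 21.6 in HSC-3, also without overlap, though the nearest values were 1 percentile apart. The region near KRT75 averaged 32.7 ± 9.18 and 35.9 ± 16.3 (SD, n = 4 each) and overlapped (exact two-sided permutation p = 0.771). The ranks of the first 2 were higher in every KOSC-2 than in every HSC-3 library, as were those of 9.52% of the 12827 regions, and 0 of the 3 were lower in every KOSC-2 library (all regions 9.51%). Their exact permutation p of 0.0286 is the smallest possible and became 0.150 after Benjamini-Hochberg adjustment over the 12827, so neither passed 0.05. Ranked by the authors' fold in place of −log10 p, 0 of the 3 had ranks apart (all regions 7.57%), and leaving out HSC-3 0 Gy replicate 2 gave 1 of 5 commonly called keratin regions (all regions 24.3%) and HSC-3 8 Gy replicate 1 gave 1 of 10 (23.7%).

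The second comparison was between 0 and 8 Gy. No keratin gene start was gained or lost with dose in either line by the rule that both libraries of one dose and neither of the other call it. In KOSC-2, 4 of 84 keratin regions (4.76%) were gained, against 3.51% of all regions, and 0 were lost (all regions 0.870%). In HSC-3, 0 were gained (all regions 0.680%) and 0 lost (0.957%). The 4 gained regions lay inside KRT80 (chr12:52579898-52580305), 19.5 kb upstream of KRT7 (chr12:52607277-52607824), 9.6 kb downstream of the KRT8 start (chr12:53289059-53289592) and 24.3 kb upstream of KRT20 (chr17:39065616-39065998). They were weak, with percentiles of 33.1 and 33.0, 19.2 and 30.6, 38.1 and 41.5, and 26.5 and 28.04 in the 8 Gy replicates 1 and 2. The KRT7 region was also called in replicate 1 of HSC-3 at 0 Gy, and the KRT8 region in 1 HSC-3 library of each dose, so their calls did not follow dose over both lines. With 2 libraries against 2 the smallest exact two-sided permutation p is 0.333, so no region can be called by test.

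Keratin peaks per 10000 averaged 10.2 ± 1.12 at 0 Gy and 11.1 ± 1.01 at 8 Gy in KOSC-2 and 8.27 ± 1.46 and 6.08 ± 4.201 in HSC-3 (SD, n = 2 each), and the doses overlapped in both lines. The stress keratins, which are known to rise in damaged epithelium, had no region that the 8 Gy replicates of a line shared: KRT6A at its start was called in both KOSC-2 0 Gy libraries and 1 of the 2 at 8 Gy. Single libraries decided the gained and lost counts, in part because leaving one out makes the rule easier to meet. KOSC-2 gained regions numbered 15 when replicate 2 of either dose was left out (all regions 12.2% at 0 Gy and 14.1% at 8 Gy). KOSC-2 lost regions numbered 5 of 83 when 0 Gy replicate 1 was left out (all regions 6.80%), 4 of 80 for 0 Gy replicate 2 (8.49%) and 4 of 75 for 8 Gy replicate 1 (3.56%). HSC-3 gained regions numbered 10 of 82 without 8 Gy replicate 1 (all regions 11.4%), and 2 of 81 without 0 Gy replicate 1 (5.66%) or 8 Gy replicate 2 (3.36%). HSC-3 lost regions numbered 10 of 81 without 0 Gy replicate 2 (all regions 10.7%) or 8 Gy replicate 2 (7.13%), and 3 of 81 without 0 Gy replicate 1 (3.08%).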

How the data were processed

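ATAC-seq peak lists of 8 libraries (2 per line and dose) were used, each called on its own library. Build hg19, MACS2 2.2.6, deepTools, SAMtools 1.9, Bowtie2 2.3.4.2 and FastQC 0.11.7 are listed without roles, per the submitters' processing notes. Treatment of duplicates, multiply matching reads and the Tn5 offset is not given in the sources used here. The authors deposited for each peak an integer score (10 times −log10 q without decimals), a ratio (fold enrichment at the summit over the library's own background), the −log10 p-value, the −log10 q-value and the summit offset. The lowest −log10 q was 2.02. These values served to describe and rank peaks within a list and to solve for pileup and background.

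Pileup and local background were solved from the deposited fold and p under a Poisson model with 1 added to both in the fold. The background was scaled to reads per 10 kb with 300 bp fragments, a length taken from the narrowest peak and not stated in the sources used here, and 100% of peaks gave a whole pileup from 2 to 400 within 0.0001 of the deposited −log10 p. The genome-wide background, the measure of depth, ran from 20.2 to 64.8 reads per 10 kb. The smallest pileup called ran from 5 to 9, so regions under that pileup could not be seen. The 2 short HSC-3 lists had backgrounds of 20.2 (0 Gy replicate 2) and 42.6 (8 Gy replicate 1). The 2 long HSC-3 lists had 27.0 (0 Gy replicate 1) and 20.7 (8 Gy replicate 2). What made the 2 lists short was not tested.

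Calls were compared by exact permutation with Benjamini-Hochberg adjustment over all regions (threshold 0.05). Named were the 8 basal, simple and stress genes, line-only, dose-associated and all-library regions, and the strongest of each group. The strongest was the region with the highest mean percentile over the libraries that called it. Further genes (KRT15, KRT4, KRT13, KRT9, KRT86) and the region 22.5 kb upstream of KRT78 were singled out after their values were seen. The members and gene lists were chosen with earlier results of these data known. Gene positions were entered from general knowledge and checked by spacing only. The local background and the omission of the 2 short HSC-3 lists were chosen after seeing the data. Alternatives were a −log10 q of at least 5, equal lists, at least 50% coverage, at least 3 of 4 libraries, ranking by fold, a replicate block and leaving out libraries. Software was matplotlib 3.10.9, scipy 1.17.1, pandas 2.3.3, numpy 2.4.6 and Python 3.11.15, and the functions were tested on simulated lists.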

Additional observations from a re-analysis of the deposited data

Results flagged for a closer look

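Of 14 sets of 4 libraries of one line (keratin peaks per list, local background and the ranks of the 3 regions called in all 8 libraries), 1 had a value far from the rest, where chance gives about 1 in 20. It was the rank of the region 19.7 kb upstream of KRT19 in the KOSC-2 0 Gy library replicate 2, at percentile 57.0, while the rest of KOSC-2 ranged from 35.3 to 38.9.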

How the results depend on the processing

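Requiring a −log10 q of at least 5 or 50% coverage left all counts of line-only, gained and lost keratin regions within 1.5 times their value. With lists of equal length, of 40 keratin regions 1 was KOSC-2-only (all regions 1.68%), 1 KOSC-2 gained (2.12%), 1 HSC-3 gained (1.81%) and 3 HSC-3 lost (2.30%). With 3 of 4 libraries sufficing, KOSC-2-only regions numbered 8 of 84 (all regions 6.22%). Without the 2 short HSC-3 lists, HSC-3-only regions numbered 2 of 79 (all regions 3.09%). In that setting 4 of 18 regions called in all remaining libraries had ranks apart (all regions 32.4%). Ranking by fold left 0 with ranks apart. Leaving out 1 library at a time gave 3 to 6 regions specific to KOSC-2, 0 specific to HSC-3, 5 to 15 gained and 0 to 5 lost in KOSC-2, 0 to 10 gained and 0 to 10 lost in HSC-3, 1 to 2 with ranks apart, and a difference in keratin peaks per 10000 of 2.12 to 4.18. The replicate block (lines compared within dose and replicate number) also gave 2 regions with one sign in all 4 pairs (all regions 35.7%) and changed no call. Same-numbered libraries shared only a number, with correlations of their deviations over 12827 regions between -0.0957 and 0.131. Depth and the short HSC-3 lists limit what a missing call can show.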
